A study of Mus musculus with 21 samples.

Results

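SLC16A1 clone 2 was set against chr8A, with both lines grown in SL2i medium, in 4 of the 21 libraries of the series: 2 of clone 2 and 2 of chr8A. The libraries were chosen by line and medium as labelled, and the unit described is the gene. The cells were mouse embryonic stem cells (ESCs), pluripotent cells that can be kept in culture, and poly(A)-selected RNA was sequenced after 48 h with 0.2 mM pyruvate and 10% dialyzed serum in all groups. The short medium names were taken in their usual sense: SL for serum plus LIF (leukemia inhibitory factor), and SL2i for SL plus 2i, a pair of inhibitors of the kinases GSK3B and MEK. Other groups that enter below were SLC16A1 clone 1 in SL2i (2 libraries), SLC16A1 clone 2 in SL (3 libraries) and chr8A in SL (3 libraries). The sources used here do not give how the clones were altered or what chr8A stands for, and chr8A was read as the control line. Clone 2 and chr8A are 1 line each, so a difference that belongs to SLC16A1 and a difference between 2 cell lines cannot be told apart. Nothing in the labels says that libraries of a line came from separate cultures, so the p-values rest on a spread between libraries that may be technical.

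Slc16a1 encodes MCT1, a transporter in the plasma membrane that moves pyruvate, lactate and other monocarboxylates together with a proton. In mouse ESCs the MEK inhibitor of 2i blocks the kinase cascade that ends in ERK, and the GSK3 inhibitor stabilizes beta-catenin; cells in 2i express naive pluripotency genes evenly and carry less DNA methylation than cells in serum. Genes such as the Sprouty and Dusp families are switched on by ERK and act back on the cascade as inhibitors. Imprinted genes, which also recur below, are expressed mainly from a single parental allele, marked by DNA methylation at a control region.

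The 4 libraries held 10347046 to 10908368 counts, against 15802072 to 30145771 in the SL libraries of the same table. Nanog, Pou5f1 and Sox2, transcription factors that define pluripotent cells, were present at 1106 and 1157, 1360 and 1350, and 591 and 568 CPM (counts scaled to library size) in the 2 clone 2 libraries, against 1199 and 1159, 1345 and 1281, and 567 and 596 CPM in chr8A, and none of the 3 was called. Other markers of these cells did change. Dppa5a was called lower, at 1730 and 1748 CPM in clone 2, against 2352 and 2053 CPM in chr8A (log2 fold change -0.34, adjusted p = 0.00082, edgeR). The Dppa5a value is uncertain, because 58.1% of its short sequence words also occur in another gene. Sall4, Utf1 and Zfp42 were called higher (0.27, 0.78 and 0.17), and Tdgf1 was not called. On the first principal component of the 6 SL2i libraries, with 67.5% of the variance, the clone 2 libraries lay at 8.94 and 9.36, the clone 1 libraries at 9.44 and 10.2, and the chr8A libraries at -19.5 and -18.45. Clone 2 and clone 1 thus lay together on the side away from chr8A, and they parted on the second component, with 9.28% of the variance.

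Of 17178 genes with enough reads, 3531 (20.6%) were called between clone 2 and chr8A at an adjusted p under 0.05 (edgeR quasi-likelihood fit, p adjusted after Benjamini and Hochberg). Of these, 1673 (9.74% of those tested) were higher and 1858 (10.8%) were lower in clone 2. Counts of called list members below are to be read against these shares of all genes. Most changes were small: the median size of a called change was 0.35 on the log2 scale, and a change of 2-fold or more was called upward for 250 genes and downward for 256. Leaving out chr8A replicate 1 changed the counts most, to 1064 higher and 1294 lower genes. The median standard error of a log2 fold change was 0.14. Log2 fold changes are clone 2 over chr8A throughout, given ± SE, and levels are TMM-normalized CPM.

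**Figure D1:**
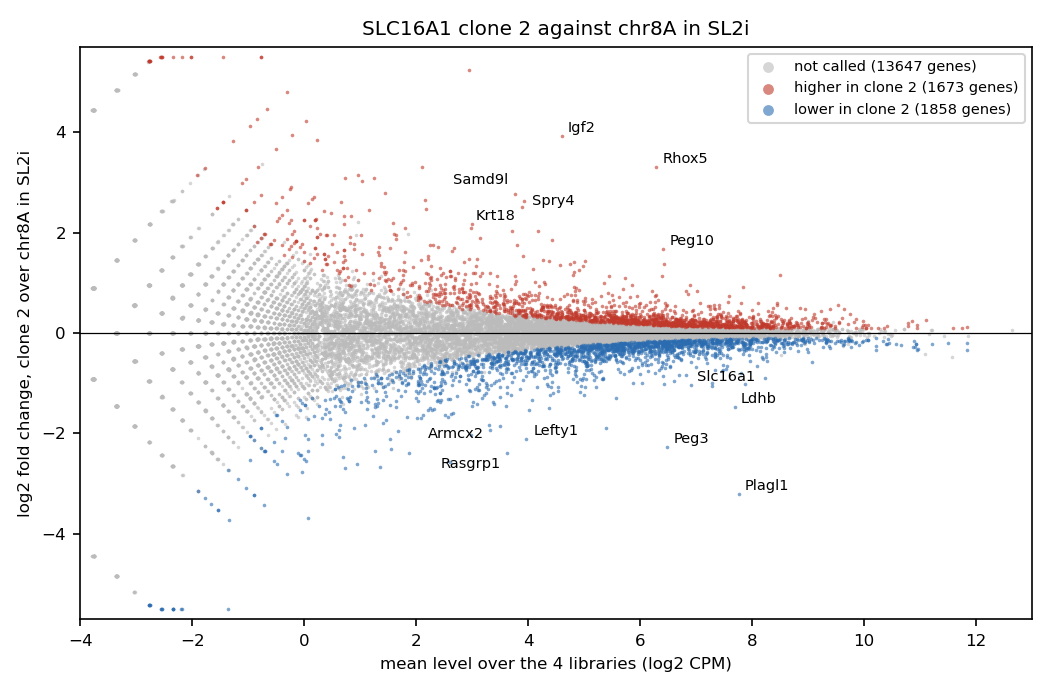
Log2 fold change of clone 2 over chr8A in SL2i against the mean level over the 4 libraries in log2 CPM, 1 point per tested gene, with changes beyond the axis drawn at its edge. Red points are the 1673 genes called higher in clone 2, blue points the 1858 called lower and grey points the 13647 not called; most called changes lie close to 0, and Plagl1, Peg3, Rhox5 and Igf2 lie far from it.

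Slc16a1 (Entrez gene 20501, chromosome 3) was transcribed in both lines at a level that was lower in clone 2. It stood at 78.7 and 78.5 CPM in the clone 2 libraries, against 157 and 167 CPM in the chr8A libraries, and the groups did not overlap. Its log2 fold change was -1.04 ± 0.053 (adjusted p = 6.7e-33, edgeR). The mRNA level does not measure the MCT1 protein. The 300 bases around the annotated start of Slc16a1, from 250 before it to 50 after it, are shown because this is the gene that names the clone. They run 5′ to 3′ on the plus strand at chr3:104638414-104638713 in RefSeq's annotation of GRCm38.p6, with CG pairs, the letters at which mammalian DNA is methylated, in capitals:
Slc16a1: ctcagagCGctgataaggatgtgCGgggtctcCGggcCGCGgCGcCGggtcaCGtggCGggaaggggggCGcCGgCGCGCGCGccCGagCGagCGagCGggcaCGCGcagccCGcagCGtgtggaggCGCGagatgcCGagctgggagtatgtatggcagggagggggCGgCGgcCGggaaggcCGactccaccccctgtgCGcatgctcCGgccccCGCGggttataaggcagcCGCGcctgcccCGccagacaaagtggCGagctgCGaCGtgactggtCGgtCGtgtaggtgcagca
This window holds 42 CG pairs, and 3.03% of the 32851 promoter windows of the same length hold at least as many, the median being 7. DNA methylation was not measured in these samples.

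Among 11 tested genes of monocarboxylate transport, Slc16a1 and Emb fell and Slc16a6 rose (27.3% called, against 20.6% of all genes). Emb encodes embigin, a membrane protein that escorts monocarboxylate transporters, and stood at 19.9 and 18.1 CPM in clone 2, against 23.9 and 24.6 CPM in chr8A. The Emb call (log2 fold change -0.35 ± 0.093, adjusted p = 0.0030, edgeR) ended without clone 2 replicate 2 (adjusted p = 0.105, edgeR). Slc16a6, another member of the transporter family, had 15.2 and 14.9 CPM in clone 2, against 9.95 and 7.50 CPM in chr8A (0.78 ± 0.15). Bsg, the escort of MCT1 on the cell surface, had 461 and 466 CPM in clone 2, against 472 and 449 CPM in chr8A, and was not called (adjusted p = 0.90, edgeR).

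Transcripts of pyruvate and lactate use changed in few places, and Ldhb stood out among them. Of 22 tested genes of this list, 2 rose and 3 fell (22.7%), near the share of all genes. Ldhb, a lactate dehydrogenase subunit, had 110 and 108 CPM in clone 2, against 318 and 291 CPM in chr8A (-1.48 ± 0.047, adjusted p = 2.9e-49, edgeR). This value is uncertain, because 33.8% of the 30-base words of Ldhb also occur in another gene. Ldha, the other main subunit, had 1122 and 1038 CPM in clone 2, against 1086 and 1063 CPM in chr8A, and was not called (adjusted p = 0.93, edgeR; 20.1% of its words are shared). Pck2, the mitochondrial enzyme that makes phosphoenolpyruvate, fell to 64.4 and 62.2 CPM in clone 2, against 96.4 and 110 CPM in chr8A (-0.70 ± 0.063). Gpt2, which interconverts pyruvate and alanine, fell by 0.62 ± 0.067, and Me2, a malic enzyme that yields pyruvate, rose by 0.33 ± 0.057.

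Genes of NADH shuttles and NAD metabolism showed 5 falls and no rise among 21 tested (23.8% called, against 20.6% of all genes; 23.8% lower, against 10.8%). Besides Ldhb, they were led by Nnt, which couples NADH to NADPH across the inner mitochondrial membrane (-0.44 ± 0.094), Gpd1l (-0.38 ± 0.084) and Nampt, which makes an NAD precursor (-0.21 ± 0.041). Glycolysis genes were mixed, with 8 of 24 higher and 7 lower. Hk1 fell by 0.37 ± 0.051 and Pfkp by 0.37 ± 0.037; these enzymes phosphorylate glucose and fructose 6-phosphate. The number of glycolysis genes higher was 3 without chr8A replicate 1, 5 without chr8A replicate 2 and 3 without clone 2 replicate 1, and the number lower was 4 without chr8A replicate 1. In the TCA cycle list 4 of 23 rose and 5 fell. Suclg2, a subunit of succinyl-CoA ligase, had 67.2 CPM in each clone 2 library, against 35.1 and 38.6 CPM in chr8A (0.87 ± 0.075; 20.9% of its words are shared). Cs, the citrate synthase gene, and the isocitrate dehydrogenase genes Idh2 and Idh3a changed by -0.22, -0.28 and -0.18. TCA genes higher numbered 2 without either chr8A library and 1 without clone 2 replicate 2, and those lower numbered 3 without chr8A replicate 1. Of 44 nuclear genes of the respiratory chain 4 rose and 8 fell (27.3% called, against 20.6% of all genes). With only the groups compared the falls numbered 5. Most of the 8 falls were lost without chr8A replicate 1 or without clone 2 replicate 2, and leaving out another library gave more than 8. The number of falls is therefore not firm, and the number of rises was smaller without clone 2 replicate 1.

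Among genes that averaged 3 log2 CPM or more, the 10 largest rises were those of Igf2, Rhox5, Samd9l, Spry4, Krt18, Slc39a14, Id3, Rbfaos, Enox1 and Peg10. They were chosen for their size in these libraries, so the values describe them and their groups do not overlap by choice; over all genes tested 55.2% did not overlap between the groups. Rhox5, an X-linked homeobox gene of reproductive tissues, had 147 and 136 CPM in clone 2, against 14.9 and 13.5 CPM in chr8A (3.31 ± 0.091). Its neighbours Rhox6 and Rhox9 were also higher, at 3.76 and 3.74 CPM and at 2.18 and 2.02 CPM in clone 2, against 0.193 and 1.18 CPM and 0.966 and 0.592 CPM in chr8A. Rhox6 and Rhox9 share 23.9% and 9.32% of their words with other genes, and the Rhox9 call ended without chr8A replicate 2 and without clone 2 replicate 1 (adjusted p = 0.13 and 0.056, edgeR). The start of Rhox5 is shown because Rhox5 had the largest rise after Igf2 (chrX:37754358-37754657, plus strand, GRCm38.p6, CG in capitals):
Rhox5: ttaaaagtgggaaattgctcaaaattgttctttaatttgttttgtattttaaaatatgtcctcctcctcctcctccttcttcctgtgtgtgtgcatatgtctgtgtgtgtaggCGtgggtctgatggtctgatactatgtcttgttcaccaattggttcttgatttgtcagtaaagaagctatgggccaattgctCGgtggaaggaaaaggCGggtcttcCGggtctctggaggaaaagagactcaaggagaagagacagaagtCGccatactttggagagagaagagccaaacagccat
The window holds 5 CG pairs, and 62.0% of promoter windows hold at least as many.

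Krt18 and Krt8 encode keratins that pair into the filaments of simple epithelia. Krt18 had 26.7 and 23.3 CPM in clone 2, against 3.96 and 4.84 CPM in chr8A (2.51 ± 0.16; 12.4% of its words are shared), and Krt8 had 38.3 and 39.6 CPM, against 14.1 and 15.8 CPM (1.38 ± 0.093; 32.9% shared). Further epithelial keratins moved with them: Krt19 rose by 1.95 ± 0.35, and Krt7 had 33 reads in clone 2 and 2 in chr8A, a 16.5-fold higher level (95% exact binomial interval 4.21 to 142, counting error only). Slc39a14, the zinc, iron and manganese importer ZIP14, had 19.11 and 23.05 CPM in clone 2, against 5.02 and 5.23 CPM in chr8A (2.04 ± 0.14). Enox1, a cell-surface NADH oxidase, had 22.3 and 20.8 CPM in clone 2, against 6.57 and 6.22 CPM in chr8A (1.75 ± 0.14). Rbfaos, antisense to Rbfa, had 31.5 and 36.0 CPM in clone 2, against 7.63 and 11.2 CPM in chr8A (1.85 ± 0.17). Whether reads were counted by strand is not stated in the sources used here, so its reads and those of Rbfa cannot be told apart; Rbfa itself had a change of -0.28 ± 0.12 that was not called (adjusted p = 0.078, edgeR).

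**Figure D2:**
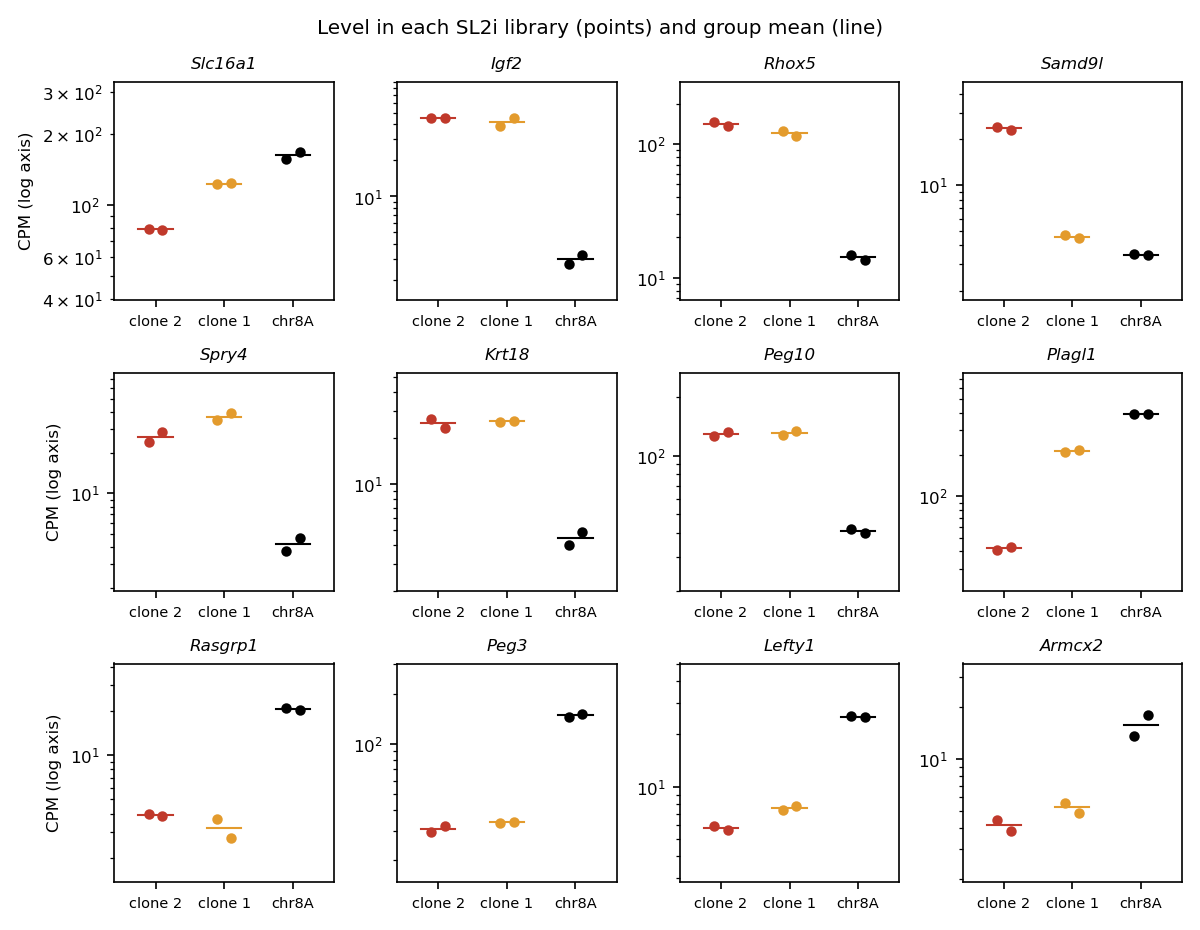
Level of 12 genes in each SL2i library in CPM on log axes, with clone 2 at the left, clone 1 in the middle and chr8A at the right; points are libraries (2 per group) and lines are group means. The clone 2 libraries lie above both chr8A libraries for Igf2, Rhox5, Samd9l, Spry4, Krt18 and Peg10 and below them for Slc16a1, Plagl1, Rasgrp1, Peg3, Lefty1 and Armcx2, and clone 1 stands near chr8A for Samd9l and between the lines for Plagl1.

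The 10 largest falls were those of Plagl1, Rasgrp1, Peg3, Lefty1, Armcx2, Cspg4b, Rgma, Maml2, Myo1a and Ebf1. Rasgrp1, an exchange factor that loads Ras with GTP, had 3.96 and 3.84 CPM in clone 2, against 21.0 and 20.2 CPM in chr8A (-2.40 ± 0.20). Cspg4b had 17.1 and 18.3 CPM in clone 2, against 65.9 and 66.2 CPM in chr8A (-1.90 ± 0.090). Like the rises, these genes were chosen for size among genes whose groups do not overlap, so their separation, shared by 55.2% of all genes, is no result. Rgma, a co-receptor for BMP ligands, had 4.75 and 4.99 CPM in clone 2, against 18.5 and 16.7 CPM in chr8A (-1.85 ± 0.20). Maml2, a coactivator of Notch, had 3.66 and 4.99 CPM, against 15.2 and 15.7 CPM (-1.83 ± 0.20). Myo1a, an unconventional myosin best known from the intestinal brush border, changed by -1.54 ± 0.17. Ebf1, a transcription factor best known from B cells, changed by -1.50 ± 0.15, with 10.9 CPM in each clone 2 library, against 28.8 and 32.7 CPM in chr8A.

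Imprinted genes held several of the largest changes, in both directions. Of 45 tested members of the list, 10 rose and 9 fell (42.2% called, against 20.6% of all genes), with a median change of 0.08, against 0.00 over all genes. Plagl1, a zinc-finger transcription factor expressed from the paternal allele, had 41.2 and 43.0 CPM in clone 2, against 391 and 390 CPM in chr8A (-3.21 ± 0.058, adjusted p = 7.0e-69, edgeR). Hymai, a noncoding transcript within the Plagl1 locus, had 11 reads in clone 2 and 68 in chr8A (-2.61 ± 0.54), and the genes overlap, so their reads may not be separable. Peg3, a zinc-finger gene expressed from the paternal allele, had 29.3 and 32.0 CPM in clone 2, against 145 and 151 CPM in chr8A (-2.27 ± 0.061), and its neighbour Usp29 changed by -2.39 ± 0.30. The start windows of Plagl1 (chr10:13090582-13090881, plus strand) and Peg3 (chr7:6730370-6730669, minus strand), both GRCm38.p6 with CG in capitals, are shown because each stands at the head of a pair of imprinted genes that fell:
Plagl1: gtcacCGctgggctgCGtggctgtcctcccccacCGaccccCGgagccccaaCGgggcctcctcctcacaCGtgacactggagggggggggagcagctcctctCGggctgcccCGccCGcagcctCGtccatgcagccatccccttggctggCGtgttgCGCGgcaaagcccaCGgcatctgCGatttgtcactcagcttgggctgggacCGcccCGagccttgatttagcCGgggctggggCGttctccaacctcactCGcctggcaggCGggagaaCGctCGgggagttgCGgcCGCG
Peg3: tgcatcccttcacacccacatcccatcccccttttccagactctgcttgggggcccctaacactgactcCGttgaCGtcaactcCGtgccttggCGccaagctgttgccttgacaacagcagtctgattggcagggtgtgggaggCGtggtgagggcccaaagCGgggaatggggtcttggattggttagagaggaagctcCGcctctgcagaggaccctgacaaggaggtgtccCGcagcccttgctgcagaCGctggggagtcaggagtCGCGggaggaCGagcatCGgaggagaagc
The Plagl1 window holds 26 CG pairs, and 16.9% of promoter windows hold at least as many. The Peg3 window holds 13, and 37.9% hold at least as many. The window of Usp29, which starts on the other strand, shares 263 of its 300 bases with that of Peg3.

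At the Dlk1-Meg3 locus on chromosome 12, 3 noncoding RNAs made from the maternal allele were lower together. Meg3 had 56.9 and 56.6 CPM in clone 2, against 120 and 111 CPM in chr8A (-1.02 ± 0.057), and Rian had 105 and 97.9 CPM, against 222 and 197 CPM (-1.05 ± 0.049). Mirg changed by -0.91 ± 0.16. Rtl1, a protein-coding gene made from the paternal allele there, had 5.64 and 5.57 CPM in clone 2, against 8.99 and 9.58 CPM in chr8A, a change of -0.73 ± 0.41 that was not called (adjusted p = 0.28, edgeR). It was called with no filter, in DESeq2 and with only the groups compared (adjusted p = 0.020, 0.035 and 0.0033), in a range of 0.0033 to 0.51 over the alternatives. Dlk1, the other such gene, had only 14 reads in clone 2 and 10 in chr8A and was not called (adjusted p = 0.64, edgeR). Igf2, a growth factor gene, and the noncoding H19 beside it were both higher in clone 2. Igf2 had 45.1 and 45.7 CPM in clone 2, against 2.71 and 3.26 CPM in chr8A (3.93 ± 0.17), and H19 had 6.93 and 8.64 CPM, against 0.290 and 1.28 CPM (3.31 ± 0.36). The Igf2 value is uncertain, since 61.9% of its words occur in another gene and since the antisense Igf2os moved with it, with 40 reads in clone 2 and 2 in chr8A. Peg10, a gene derived from a retrotransposon, had 127 and 133 CPM in clone 2, against 41.6 and 39.7 CPM in chr8A (1.68 ± 0.054). Cdkn1c, which encodes the cell cycle inhibitor p57, had 7.43 and 6.15 CPM in clone 2, against 2.90 and 1.97 CPM in chr8A (1.47 ± 0.22).

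Most of the listed genes driven by ERK were higher in clone 2 in a medium that holds a MEK inhibitor. ERK activity itself was not measured. Of 19 listed genes tested, 12 rose and none fell (63.2% higher, against 9.74% of all genes), with a median change of 0.39. Spry4, a Sprouty protein that restrains the ERK cascade, had 24.2 and 28.2 CPM in clone 2, against 3.77 and 4.64 CPM in chr8A (2.64 ± 0.14). Etv4, an ETS factor downstream of ERK, had 30.6 and 25.9 CPM, against 9.66 and 11.1 CPM (1.45 ± 0.12). Dusp6, a phosphatase of ERK, had 14.4 and 13.3 CPM, against 6.18 and 5.83 CPM (1.20 ± 0.15), and Myc had 19.7 and 17.5 CPM, against 7.63 and 9.18 CPM (1.14 ± 0.13). Spry4 was chosen among genes whose groups do not overlap and the other 3 for their small p, so the separation of their libraries follows from the choice (55.2% of all genes). Egr1, an immediate early target, had 9 reads in clone 2 and 23 in chr8A and was not called (adjusted p = 0.34, edgeR). Under the alternatives tried 11 or 12 of the 19 rose and none fell.

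Among the ligands and receptors upstream, Fgf4, the main FGF of ESCs, fell to 239 and 242 CPM in clone 2, against 350 and 337 CPM in chr8A (-0.51 ± 0.040). The other calls in the list of 12 FGF ligands and receptors were Fgf17, with 11 reads in clone 2 and 30 in chr8A, and Fgfbp1 (1.00 ± 0.25). The Fgf17 call ended without any of chr8A replicate 2, clone 2 replicate 1 or clone 2 replicate 2 (adjusted p 0.33, 0.12 and 0.084, edgeR), and the Fgfbp1 call ended without chr8A replicate 2 (adjusted p = 0.19, edgeR). In the Nodal and activin list 3 of 15 rose and 4 fell. Lefty1 and Lefty2, secreted antagonists of Nodal, fell: Lefty1 had 5.94 and 5.67 CPM in clone 2, against 25.3 and 25.0 CPM in chr8A (-2.11 ± 0.13), and Lefty2 had 159 and 153 CPM, against 312 and 315 CPM (-1.01 ± 0.045). The Lefty genes resemble each other, and 26.3% and 18.7% of their words are shared. Inhbb, an activin subunit, rose by 1.75 ± 0.24, and Smad7, an inhibitor of the pathway's receptors, rose by 0.59 ± 0.069.

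In the BMP list 3 of 14 rose and 3 fell. Bmp4 had 20.4 and 26.0 CPM in clone 2, against 10.3 and 12.5 CPM in chr8A (1.02 ± 0.14). Id3, an inhibitor of helix-loop-helix factors that BMP induces, had 29.2 and 28.7 CPM in clone 2, against 6.57 and 7.60 CPM in chr8A (2.03 ± 0.13). Id1 and Id2, genes of the same family, were not called (adjusted p = 0.84 and 0.98, edgeR), and Id4 fell by 0.61 ± 0.16. No BMP gene was lower without chr8A replicate 1 or without clone 2 replicate 2, where the Id4 adjusted p was 0.10 and 0.059. LIF signalling genes showed 5 falls of 14 (and 1 rise, a number that was 0 without chr8A replicate 1 and 3 without clone 2 replicate 2), led by the receptor subunit Il6st (-0.40 ± 0.053) and the STAT3 targets Pim1 (-0.38 ± 0.045) and Pim3 (-0.36 ± 0.058). Among 16 Wnt targets 2 rose and 3 fell (31.2% called, against 20.6% of all genes). Lef1 rose by 0.85 ± 0.18, while Sp5 and Notum fell by 0.62 ± 0.13 and 0.51 ± 0.075.

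**Figure D3:**
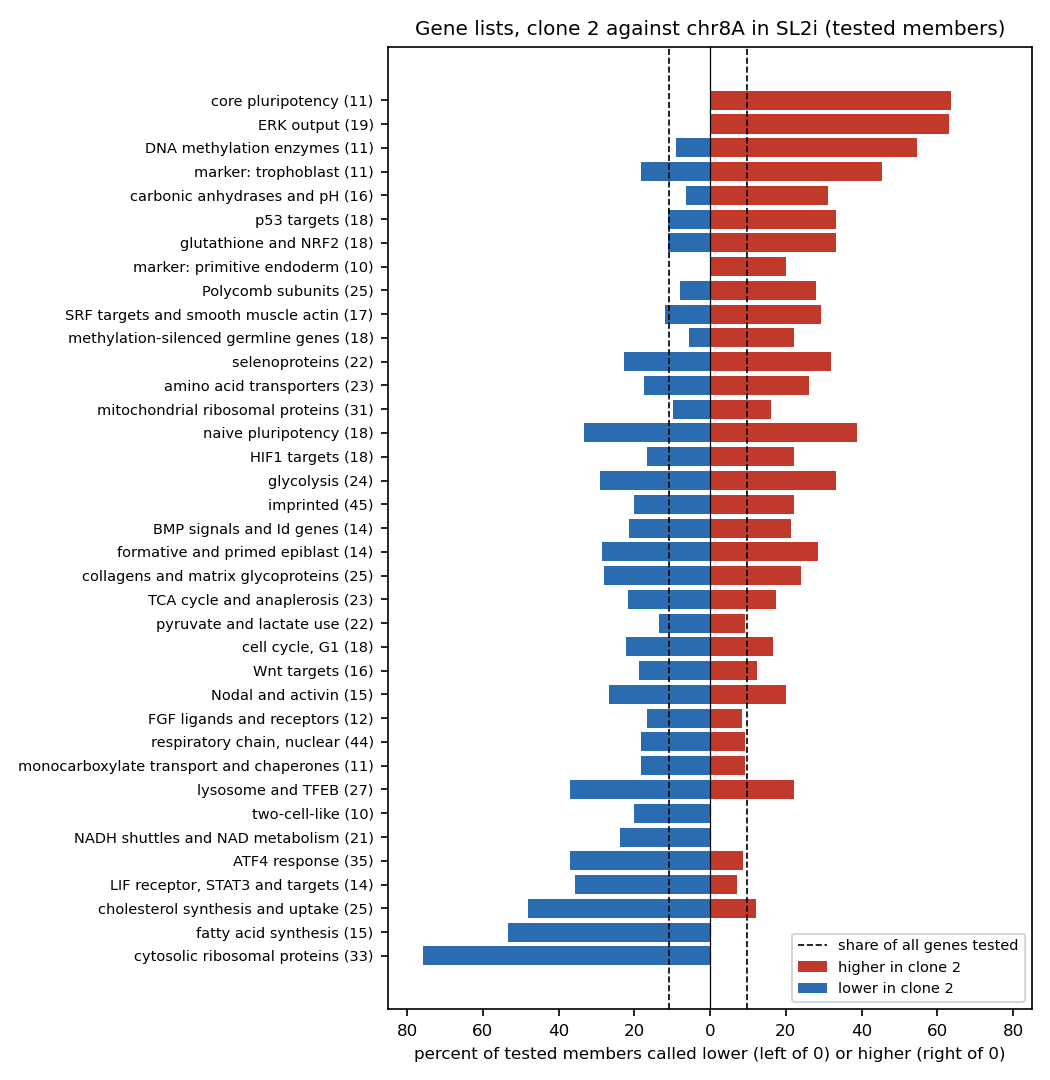
Share of tested members of each gene list called higher (red, right of 0) or lower (blue, left of 0) in clone 2 against chr8A in SL2i, for lists with at least 10 tested members, whose number stands in brackets. Dashed lines give the shares over all genes tested, 9.74% higher and 10.8% lower; core pluripotency and ERK output have the largest shares higher, and cytosolic ribosomal proteins the largest share lower.

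Naive pluripotency genes went both ways, with 7 of 18 higher and 6 lower. Tet2, which oxidizes 5-methylcytosine, had 335 and 380 CPM in clone 2, against 260 and 270 CPM in chr8A (0.43 ± 0.043), and Klf2, a factor of the naive state, had 242 and 254 CPM, against 367 and 364 CPM (-0.56 ± 0.040). Dppa3 fell by 1.07 ± 0.10, with 30.4% of its words shared. Core pluripotency genes showed 7 rises and no fall among 11 (63.6% higher, against 9.74% of all genes). The largest was that of Utf1, with 151 and 143 CPM in clone 2, against 79.0 and 92.2 CPM in chr8A (0.78 ± 0.050), and Mybl2, Sall4 and Trim28 rose by 0.28, 0.27 and 0.25. Formative and primed genes were split, with 4 of 14 higher and 4 lower, and the number lower was 2 without chr8A replicate 1.

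DNA methylation enzymes rose in 6 of 11 cases and fell in 1. Dnmt3l, the cofactor of the de novo methyltransferases, had 296 and 298 CPM in clone 2, against 158 and 157 CPM in chr8A (0.92 ± 0.041, adjusted p = 1.0e-36, edgeR). Dnmt3b, a de novo methyltransferase, had 233 and 225 CPM, against 149 and 151 CPM (0.61 ± 0.041; 13.7% of its words are shared). Zfp57, which protects methylation at imprinted control regions, rose by 0.33 ± 0.035. The fall was that of Dnmt3a, the other de novo enzyme, at 43.7 and 44.3 CPM in clone 2, against 58.9 and 54.1 CPM in chr8A (-0.36 ± 0.066). Of 18 tested germline genes known to be silenced by methylation, 4 rose and 1 fell (27.8% called, against 20.6% of all genes). Tex19.1 had 74.7 and 78.9 CPM in clone 2, against 41.4 and 37.5 CPM in chr8A (0.96 ± 0.078; 6.63% shared), and Rpl10l fell by 1.30 ± 0.089 (24.5% shared). The germline rises numbered 2 without chr8A replicate 1. Polycomb subunits rose in 7 of 25 cases and fell in 2; Jarid2, a cofactor of Polycomb complex PRC2, rose by 0.51 ± 0.037, and Pcgf1 fell by 0.78 ± 0.14 (23.6% shared).

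Several genes for fatty acid and cholesterol synthesis were lower. Of 15 fatty acid genes 8 fell, 7 were not called and none rose (53.3% lower, against 10.8% of all genes), with a median change of -0.25. Scd1, a fatty acid desaturase, had 208 and 212 CPM in clone 2, against 318 and 342 CPM in chr8A (-0.65 ± 0.043; 8.38% shared). Acly and Fasn, which make cytosolic acetyl-CoA and palmitate, fell by 0.28 ± 0.035 and 0.23 ± 0.035. Of 25 cholesterol genes 12 fell, 10 were not called and 3 rose, with a median of -0.18. Insig1, which holds back sterol-regulated transcription factors in the endoplasmic reticulum, fell by 0.34 ± 0.055, while Pmvk, a kinase of cholesterol synthesis, rose by 0.55 ± 0.076. The cholesterol falls numbered 7 without clone 2 replicate 2, and the rises 1 without chr8A replicate 2.

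The ATF4 response, through which cells answer a lack of amino acids, showed 13 falls and 3 rises among 35 genes. Phgdh and Psat1, enzymes of serine synthesis, had 69.6 and 70.0 CPM and 280 and 304 CPM in clone 2, against 107 and 107 CPM and 360 and 371 CPM in chr8A (-0.62 ± 0.056 and -0.32 ± 0.037). The Phgdh value is uncertain, with 56.3% of its words shared. Slc38a2, a transporter of neutral amino acids, had 242 and 238 CPM in clone 2, against 341 and 332 CPM in chr8A (-0.49 ± 0.037), and Sars, a tRNA synthetase, fell by 0.34 ± 0.038. Atf4 itself was not called (-0.09 ± 0.038, adjusted p = 0.10, edgeR), but was without clone 2 replicate 1 (-0.14, adjusted p = 0.018, edgeR). The ATF4 rises numbered 1 without clone 2 replicate 1. Among 23 amino acid transporters 6 rose and 4 fell; Slc43a2 and Slc7a8, carriers of large neutral amino acids, rose by 1.21 ± 0.19 and 1.00 ± 0.19.

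Most cytosolic ribosomal protein genes fell by a small amount. Of 33 tested, 25 fell, 8 were not called and none rose (75.8% lower, against 10.8% of all genes), with a median change of -0.20 and a range of -0.31 to 0.30. These genes are highly expressed, and among 755 genes that averaged 8 log2 CPM or more 22% were lower and 23.7% higher. Rps3 had 1766 and 1722 CPM in clone 2, against 2225 and 2029 CPM in chr8A (-0.29 ± 0.035; 6.54% shared), and Rps19 had 635 and 571 CPM, against 724 and 709 CPM (-0.25 ± 0.037; 7.54% shared). Many ribosomal protein genes have processed copies, and 76.0% of the words of Rplp1, which changed by -0.28, are shared. The number lower was 17 to 26 over the alternatives, and scaling by RLE factors in place of TMM gave 25. Of 31 mitochondrial ribosomal proteins 5 rose and 3 fell (25.8% called, near the 20.6% of all genes), and 1 rise was left without any 1 of the 4 libraries.

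Selenoproteins, which carry selenocysteine, showed larger changes, and the list was written after some of these values were seen. Of 22 tested, 7 rose and 5 fell. Gpx1, the cytosolic glutathione peroxidase, had 540 and 458 CPM in clone 2, against 232 and 217 CPM in chr8A (1.15 ± 0.069). Selenow had 63.7 and 56.7 CPM, against 29.3 and 25.1 CPM (1.14 ± 0.081), and Selenoh had 171 and 141 CPM, against 84.1 and 76.3 CPM (0.96 ± 0.064). Other peroxidases of the family went down: Gpx2 had 11.3 and 13.7 CPM in clone 2, against 31.8 and 27.3 CPM in chr8A (-1.24 ± 0.13; 9.86% shared), and Gpx4, which protects membrane lipids, had 138 and 128 CPM, against 185 and 173 CPM (-0.43 ± 0.054; 39.2% shared). In the glutathione and NRF2 list 6 of 18 rose and 2 fell, and the falls numbered 1 without chr8A replicate 1 and 1 without clone 2 replicate 2. Nqo1, a quinone reductase that NRF2 induces, had 120 and 131 CPM in clone 2, against 87.6 and 94.9 CPM in chr8A (0.46 ± 0.061). Among 18 p53 targets 6 rose, led by Pmaip1 (0.84 ± 0.052), and 2 fell, of which 0 were left without clone 2 replicate 1 and 1 without each other library.

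Targets of the hypoxia factor HIF1 were split, with 4 of 18 higher and 3 lower. Pdk1, the kinase that shuts pyruvate dehydrogenase, had 52.5 and 52.7 CPM in clone 2, against 42.2 and 42.1 CPM in chr8A (0.32 ± 0.066), while P4ha1, a collagen prolyl hydroxylase subunit, had 28.8 and 28.4 CPM, against 37.3 and 37.7 CPM (-0.39 ± 0.090). The HIF1 rises numbered 2 without clone 2 replicate 1 and the falls 1 without clone 2 replicate 2. Among 18 genes of the G1 phase 3 rose and 4 fell; besides Cdkn1c and Myc, Cdk2 had 162 and 155 CPM in clone 2, against 182 and 188 CPM in chr8A (-0.22 ± 0.047). The G1 falls numbered 2 without chr8A replicate 1, 1 without clone 2 replicate 1 and 2 without clone 2 replicate 2. Of 17 targets of SRF, a factor that answers to actin, 5 rose and 2 fell, and the rises numbered 3 without chr8A replicate 2 or clone 2 replicate 1. Zyx, a focal adhesion gene, had 16.5 and 16.9 CPM in clone 2, against 8.99 and 9.28 CPM in chr8A (0.87 ± 0.13), and Tpm2, a tropomyosin gene, had 8.42 and 10.5 CPM, against 13.8 and 17.4 CPM (-0.72 ± 0.14). Genes of the 2-cell-like state showed no rise and 2 falls of 10, both of which ended without chr8A replicate 1 or clone 2 replicate 1, and none of 9 tested Hox genes was called.

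**Figure D4:**
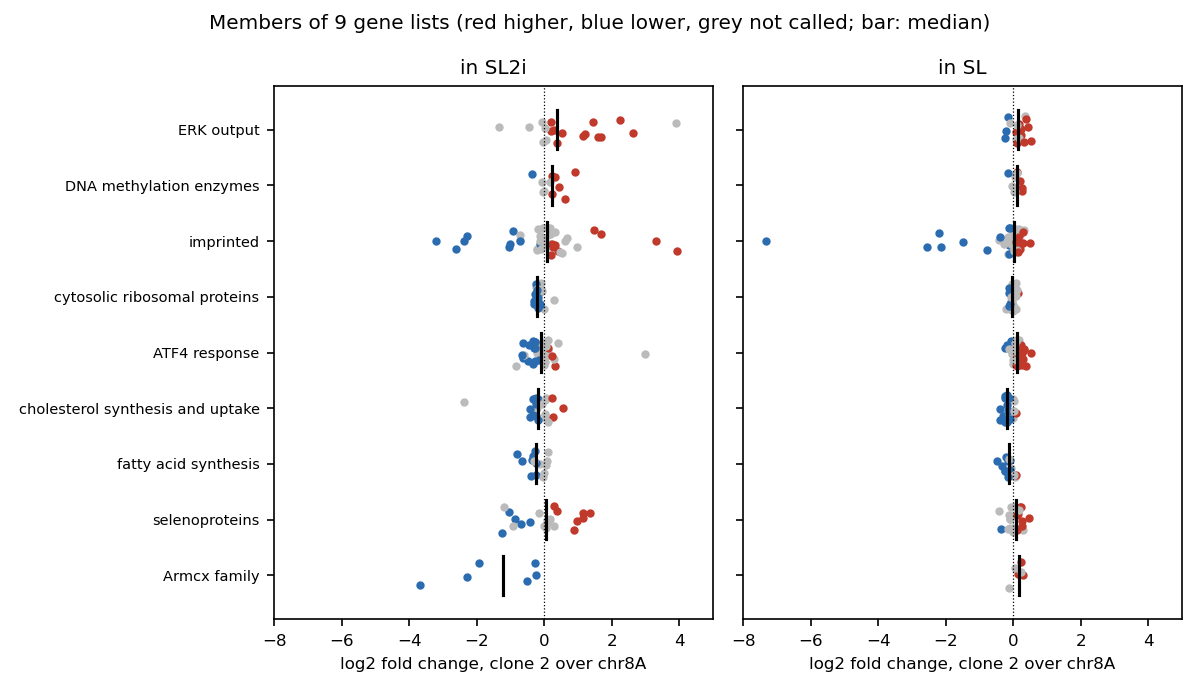
Log2 fold change of clone 2 over chr8A for the tested members of 9 gene lists, in SL2i (left) and SL (right); each point is a gene, red where called higher, blue where called lower and grey where not called, and the bar is the median. In SL2i the ERK points extend to the right and the Armcx points to the left, the called ribosomal protein points lie in a narrow band left of 0, and the imprinted points extend to both sides.

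Lysosomal genes fell in 10 of 27 cases and rose in 6, the rises numbering 3 without chr8A replicate 1. Npc2, which carries cholesterol inside the lysosome, had 273 and 247 CPM in clone 2, against 354 and 336 CPM in chr8A (-0.41 ± 0.041), while Atp6v0d1, a subunit of the proton pump, rose by 0.44 ± 0.058. Carbonic anhydrases and pH regulators showed 5 rises and 1 fall of 16. Car2 had 46.1 and 48.5 CPM in clone 2, against 16.6 and 18.4 CPM in chr8A (1.44 ± 0.085). Car4, a carbonic anhydrase on the cell surface, had 24 reads in clone 2 and 0 in chr8A, an at least 7.99-fold higher level against a floor of 3 reads over the group. The rises of this list numbered 3 without chr8A replicate 2 or clone 2 replicate 1, and there was no fall without chr8A replicate 1 or clone 2 replicate 1. In the matrix list 6 of 25 rose and 7 fell: Nid1 had 435 CPM in each clone 2 library, against 625 and 664 CPM in chr8A (-0.57 ± 0.036), Lamb2 fell by 0.73 ± 0.067, and Thbs1 rose by 2.33 ± 0.35.

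The Armcx genes, X-linked genes with armadillo repeats that lie together in the genome, were all 6 called lower with every library in the fit, in a list also written after values were seen. Armcx2 had 4.46 and 3.84 CPM in clone 2, against 13.6 and 18.0 CPM in chr8A (-1.93 ± 0.16). Armcx3 had 3 reads in clone 2 and 40 in chr8A, which is 13.4-fold lower (exact binomial 95% interval of the ratio 4.25 to 67.5; 30.3% of its words are shared). Armcx1 and Armcx4 differed less, with -0.25 ± 0.078 and -0.27 ± 0.077, and these calls ended without clone 2 replicate 2 (adjusted p = 0.096 and 0.068, edgeR). The Armcx1 call also ended without chr8A replicate 1 (adjusted p = 0.17) and without clone 2 replicate 1 (adjusted p = 0.055, edgeR). Armcx5 had 5.84 and 5.38 CPM in clone 2, against 7.83 and 8.20 CPM in chr8A (-0.51 ± 0.19; 21.4% shared), and its call ended in DESeq2, with no filter and without each of the 4 libraries (adjusted p = 0.062 to 0.22). Armcx6 had 4 reads in clone 2 and 20 in chr8A (16.0% shared), and its call ended without clone 2 replicate 2 (adjusted p = 0.165, edgeR). Without clone 2 replicate 2 the falls numbered 2 of 6, those of Armcx2 and Armcx3. Neurofilament subunits, in a list of the same origin, rose in 3 of 4 cases: Nefl had 119 and 111 CPM in clone 2, against 49.9 and 54.6 CPM in chr8A (1.13 ± 0.061), Nefm rose by 1.00 ± 0.091 and Nefh by 1.34 ± 0.12.

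Some markers of other cell types differed between the groups, and several single markers moved more than the sums of their lists. In bulk RNA fewer cells of a type and less RNA per cell cannot be told apart. Trophoblast markers summed to 194.7 to 202.3 CPM in clone 2, against 143.1 to 159.0 CPM in chr8A. Of 11 tested, 5 rose (45.5%, against 9.74% of all genes) and 2 fell. Most of the rise in the sum lay in the keratins Krt8 and Krt18. Krt8 had 38.3 and 39.6 CPM in clone 2, against 14.1 and 15.8 CPM in chr8A, and Krt18 had 26.7 and 23.3 CPM, against 3.96 and 4.84 CPM. Krt7 was also among the rises, Plet1 fell by 0.77 ± 0.15, and Prl3d1 and Tpbpa had no read. The sum without the keratins was not tested. Primitive endoderm markers summed to 17.7 to 18.5 CPM in clone 2, against 11.1 to 12.5 CPM in chr8A, with Dab2 (2.09 ± 0.29) and Hnf4a (1.69 ± 0.43) higher of 10 tested and no read of Afp. The Hnf4a call ended without chr8A replicate 2 (adjusted p = 0.13, edgeR). Neural markers summed to 63.0 to 63.5 CPM in clone 2, against 57.9 to 61.1 CPM in chr8A; Sox1 (0.97 ± 0.19) and Tubb3 (0.75 ± 0.089) rose, Nes fell by 1.19 ± 0.096, and Neurog2 and Dcx had no read. Mesoderm markers summed to 18.9 to 19.3 CPM in clone 2, against 12.7 to 17.0 CPM in chr8A, with Eomes called higher, a call that ended without chr8A replicate 1 (adjusted p = 0.080, edgeR), and no read of T. Fibroblast markers summed to 11.3 to 12.5 CPM in clone 2, against 12.3 to 13.1 CPM in chr8A, with none of 8 called. The part of such cells in the gene lists above was not tested.

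The same lines were compared in SL to see whether clone 2 differs from chr8A in the same genes without 2i. In SL 4618 genes (26.9%) were called, of which 2452 (14.3%) were higher and 2166 (12.6%) lower in clone 2. No library is shared between the media. Of the genes called in SL2i, 1078 were called in the same direction in SL, which is 30.5% of the SL2i list and 23.3% of the SL list, and 433 were called in the opposite direction (12.3% and 9.38%). Among the 506 genes changed at least 2-fold in SL2i, 86 were called in the same direction in SL and 46 in the opposite one. The difference between the media was tested as an interaction, the SL2i change minus the SL change, and 2898 genes (16.9%) were called, 1321 (7.69%) with a higher and 1577 (9.18%) with a lower value in SL2i. The interaction was called for 343 of the 506 genes. SL libraries were deeper; thinned to the depth of the SL2i libraries, they gave 2505.

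Slc16a1 and Peg3 had no called interaction, and most of the largest changes had one. Slc16a1 changed by -1.04 ± 0.053 in SL2i and -1.08 ± 0.034 in SL (interaction 0.04 ± 0.063), and Peg3 by -2.27 ± 0.061 and -2.19 ± 0.032 (interaction -0.08 ± 0.073). Samd9l, an interferon-inducible gene on chromosome 6, rose by 2.77 ± 0.18 in SL2i and 2.40 ± 0.14 in SL. The 5 largest called interactions above that level were those of Igf2, Plagl1, Nkx1-2, Rhox5 and Krt18. Igf2 changed by 3.93 ± 0.17 in SL2i and by -0.78 ± 0.044 in SL (interaction 4.71 ± 0.17). Plagl1 was lower in both media, by -3.21 ± 0.058 in SL2i and -7.31 ± 0.13 in SL, where it stood at 0.267 ± 0.12 CPM in clone 2 and 42.2 ± 3.25 CPM in chr8A (SD, n = 3 each). Nkx1-2, a homeobox gene, had 7.03 and 5.57 CPM in clone 2, against 13.9 and 12.0 CPM in chr8A in SL2i. In SL it averaged 0.140 CPM in clone 2 and 0.0269 CPM in chr8A, from 12 and 2 reads. The size of its interaction (-3.31 ± 0.88) thus rests partly on very few reads. The gene lists differed too: cytosolic ribosomal proteins had 6 falls and 1 rise of 33 in SL, ATF4 genes 3 falls and 21 rises of 35, and the Armcx genes no fall and 3 rises of 6. Interactions were called lower in SL2i for 16 of 33 ribosomal protein genes and 17 of 35 ATF4 genes, against 9.18% of all genes. All 6 Armcx genes had such a call, but their list was written after SL2i values were seen. The SL2i change is a term of the interaction, so the Armcx count follows partly from the choice. Of 25 cholesterol genes 12 were called lower and 3 higher in SL2i, and 17 lower and 1 higher in SL; their interactions were called higher for 6 and lower for 3. ERK genes showed 12 rises and no fall of 19 in SL2i, with a median of 0.39, and 11 rises and 3 falls in SL, with a median of 0.13; their interactions were called higher for 9, against 7.69% of all genes, and lower for 1. Dusp6 and Etv4 stood higher in SL than in SL2i in both lines: Dusp6 was at 146 ± 5.30 CPM in clone 2 and 133 ± 5.30 CPM in chr8A in SL, and Etv4 at 79.6 ± 2.73 CPM and 71.1 ± 2.38 CPM (SD, n = 3 each). The clone 2 changes in SL were 0.13 ± 0.034 for Dusp6 and 0.16 ± 0.042 for Etv4, against 1.20 and 1.45 in SL2i, and the interactions were called (1.07 ± 0.15 and 1.29 ± 0.12). Dnmt3a, lower in clone 2 in SL2i, was higher in SL, at 257 ± 4.87 CPM in clone 2 and 213 ± 5.96 CPM in chr8A (0.27 ± 0.030).

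**Figure D5:**
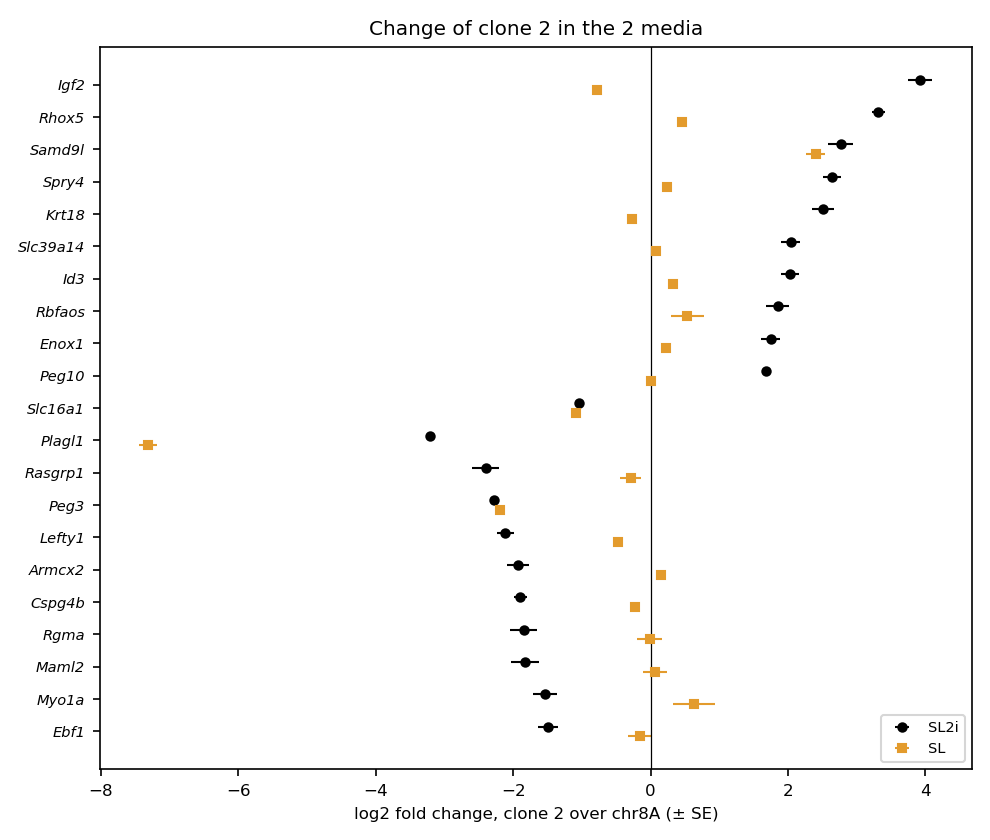
Log2 fold change of clone 2 over chr8A with its SE in SL2i (black circles) and SL (orange squares) for Slc16a1, the 10 largest rises and the 10 largest falls in SL2i. Samd9l, Slc16a1 and Peg3 have nearly equal values in the media, Plagl1 is far lower in SL, and most other genes lie near 0 in SL; the genes were chosen by their SL2i values.

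Clone 2 and clone 1, the other SLC16A1 line, were compared directly in SL2i, and 27 genes (0.157%) were called, 15 (0.0873%) higher and 12 (0.0699%) lower in clone 2, with 1414 at an unadjusted p under 0.05. Slc16a1 was lower in clone 2, at 78.7 and 78.5 CPM, against 122 and 123 CPM in clone 1 (-0.64 ± 0.055), and Plagl1 was lower still, at 41.2 and 43.0 CPM, against 209 and 215 CPM (-2.33 ± 0.061). Spry4 was also below clone 1 (-0.50 ± 0.084), as were Etv4 (-0.39 ± 0.089) and Mycbp2 (-0.58 ± 0.073), a ubiquitin ligase. On chromosome 6, Thsd7a (4.11 ± 0.26), Samd9l (2.37 ± 0.17), Phf14 (0.85 ± 0.065) and Ndufa4 (0.83 ± 0.044) were higher in clone 2 than in clone 1. Thsd7a had 14.1 and 15.8 CPM in clone 2, against 0.528 and 1.17 CPM in clone 1 and 0.387 and 0.395 CPM in chr8A. The genes higher numbered 9 without clone 1 replicate 1, 6 without clone 1 replicate 2 and 24 without clone 2 replicate 1, and 11 genes in all were called when only these groups were fitted. Igf2, Rhox5, Krt18 and Peg10, far above chr8A in clone 2, had 38.5 and 45.3, 126 and 115, 25.3 and 25.9, and 128 and 134 CPM in clone 1, and none was called between the clones. Both clones were set against the same 2 chr8A libraries, so values of the clones against chr8A are not independent of each other. Against chr8A, clone 1 had 3853 genes called (22.4%), 1780 higher (10.4%) and 2073 lower (12.1%).

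Called genes were spread over the genome. The median log2 fold change of the 20 chromosomes with tested genes lay between -0.03 and 0.02, and 98.5% of tested genes could be placed. Runs of at least 5 neighbouring tested genes called in the same direction were found 7 times. The longest rising runs were Aire, Dnmt3l, Gm51775, Icosl, Gatd3a and Pwp2 on chromosome 10 (median 0.57), and Ryk, Slco2a1, Rab6b, Srprb, Trf and Inhca on chromosome 9 (median 1.15). A run of 6 on chromosome 8 held 1700030K09Rik, Cherp, Slc35e1, Med26, Smim7 and Tmem38a and was lower (median -0.63). The run with the largest median was that of 5 Armcx genes on the X chromosome (-1.93), and Nkx1-2 lay in a falling run of 5 on chromosome 7 with Chst15, Oat, Lhpp and Fam53b (median -0.79). Overlapping transcripts can place a read in a neighbour, and how much this adds to the runs was not tested.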

How the data were processed

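RNA-seq counts per gene were deposited by the authors for 15 libraries of 6 groups (chr8A, SLC16A1 clone 1 and clone 2, each in SL and SL2i). Per the submitters' processing notes, DRAGEN 3.10, featureCounts and Subread with the genome GRCm39 were used; the sources used here do not state a strand setting. From the deposited counts, R 4.3.3 and edgeR 4.0.16 were used to filter genes (filterByExpr), scale libraries (TMM) and fit the quasi-likelihood model with 1 mean per group over all 15 libraries, which share the estimate of spread. Contrasts were clone 2 against chr8A in SL2i, the same contrast in SL2i minus SL, and clone 2 against clone 1 in SL2i; p-values were adjusted over all 17178 genes by Benjamini-Hochberg, and the SE of a log2 fold change is its size divided by the square root of F. The fit was tested on simulated data. The 4 libraries held 10347046 to 10908368 counts. Alternatives were RLE factors, DESeq2 1.42.0, no filter on low counts, genes with 1 CPM in 2 libraries, a replicate block, only the groups compared, SL libraries thinned to the SL2i depth, and each library left out. Intervals and floors cover counting error only.

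Genes were named by rule: Slc16a1; the 10 largest rises and falls among genes called that averaged 3 log2 CPM or more, with groups that do not overlap and a gene symbol that is no clone name; up to 4 members of a list with the smallest adjusted p; and the 5 largest interactions at that level. Atf4, Bsg, Dppa5a, Egr1, Id1, Id2, Ldha, Nanog, Pou5f1, Sox2, Tdgf1, Zfp42 and Rbfa were chosen after their values were seen. So were the further imprinted, Rhox, keratin and Armcx genes and those differing between the clones. Members and lists were chosen with earlier results of these data known, and 3 of the 43 lists (selenoproteins, Armcx, neurofilaments) were added after these results. The share of 30-base words that a gene's transcripts have in common with another gene was computed from GENCODE transcripts. Promoter windows are RefSeq's on GRCm38.p6 and were found for 152 of 208 named genes. No coordinates of the deposited files were used. Mitochondrially encoded genes are not analysed here. A few genes that were tested and counted are not reported here by name.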

Additional observations from a re-analysis of the deposited data

Results flagged for a closer look

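The change of clone 2 against chr8A differed between SL2i and SL, by a test of the interaction, for 2898 genes. Among the largest rises in SL2i, the SL2i change minus the SL change was 4.71 for Igf2, 2.85 for Rhox5, 2.78 for Krt18, 2.40 for Spry4, 1.96 for Slc39a14, 1.70 for Id3, 1.67 for Peg10, 1.53 for Enox1 and 1.31 for Rbfaos on the log2 scale. Among the largest falls it was 4.10 for Plagl1, which was lower still in SL, and -2.17 for Myo1a, -2.11 for Rasgrp1, -2.07 for Armcx2, -1.89 for Maml2, -1.83 for Rgma, -1.66 for Cspg4b, -1.64 for Lefty1 and -1.34 for Ebf1. The value of Nkx1-2, chosen for the size of its interaction, was -3.31. Its SL term rests on 12 reads in clone 2 and 2 in chr8A. The other genes were chosen for their change in SL2i, which is a term of the interaction. All these sizes are therefore descriptions, and no cause was tested.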

How the results depend on the processing

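Of the 188 named genes called between clone 2 and chr8A, 0 changed sign under the alternatives run. Of 20 named genes not called, 6 did, such as Sox2 (-0.0057, but 0.034 without chr8A replicate 2 and 0.028 without clone 2 replicate 2). The total between clone 2 and chr8A, 3531, was 3512 with RLE factors, 3140 with no filter, 3582 with a filter of 1 CPM, 3008 in DESeq2, 3640 with the replicate block and 3085 with only the groups compared; without single libraries the genes higher numbered 1064 to 1354. The SL2i minus SL total, 2898, was 2279 to 3059 over the alternatives with all libraries and 2142 to 2709 without single ones. Between clone 2 and clone 1 the genes higher, 15, numbered 9 with RLE factors, 25 in DESeq2, 23 with the replicate block, 4 with only the groups compared and 6 to 24 without single libraries; the genes lower, 12, numbered 7 with only the groups compared. The causes were not tested. Of 188 named genes called, 32 lost the call under some alternative, at most 16 under any 1 of them (without clone 2 replicate 2). Deviations of libraries with the same replicate number had correlations of -0.0735 to 0.113 between groups. Within SL2i these were small and positive, at 0.0652, 0.0762 and 0.0358. On the third component of the SL2i libraries (8.66% of the variance), replicate 1 was positive and replicate 2 negative in every line. Whether the numbers mark a shared batch cannot be told from these values. With 2 libraries a side, genes of a few CPM have wide errors, and a missed call does not show that levels are equal.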

Other observations

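Genes were also split by their response to the medium in clone 1, whose libraries enter neither side of the comparison. Of 3414 genes at least 2-fold lower in SL2i than in SL in clone 1, 7.0% were higher and 11.5% lower in clone 2 than in chr8A. Of 2555 genes at least 2-fold higher in SL2i, 10.8% were higher and 11.7% lower, and of the other 11209 genes 10.3% were higher and 10.4% lower. Over all genes tested the shares were 9.74% higher and 10.8% lower. Changes of 2-fold or more were spread less evenly. They were called upward for 103 and downward for 129 of the 3414 genes, and for 59 and 46 of the 2555. Among the other 11209 genes they numbered 88 and 81, and over all 17178 genes 250 and 256. The split was not tested.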
